A study of Caenorhabditis elegans with 5 samples.

Results

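The major sperm protein family of *Caenorhabditis elegans* was described across 5 Affymetrix arrays, on each of which 1 probe set stands for a group of probes against 1 transcript or several alike transcripts. Members were the genes whose probe set carried a single platform symbol made of msp or ssp and a number. This gave 31 genes, 23 msp and 8 ssp, of 17118 gene symbols on the array, and the rule itself reads symbols and no measured values. They were read by 32 probe sets of 22548, because msp-32 had 2 of them.

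Wild-type Bristol N2 worms of mixed stage were grown for 10 days at 20 °C in CeMM, an axenic liquid medium, and 100000 worms per experimental group gave the total RNA. There was 1 array per group: a ground control at the operation site and another at Tsukuba space center, both labelled 1 G, and worms from space flight (labelled micro gravity), from clinorotation, which turns the culture so that the gravity vector keeps changing, and from hypergravity. The labels give hypergravity as 3 G in 1 field and as 10 G in another, so it is named here without a value. The ground controls were treated as 1 group of 2 arrays, and their values are also given apart because they come from different sites. Each array pools whole animals of all ages, so fewer sperm cells and less sperm RNA per cell cannot be told apart in any value below.

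Major sperm proteins are small proteins made in spermatocytes and stored in spermatids. In the crawling sperm of nematodes they polymerise into the filaments that push the pseudopod forward, in the place actin takes in other crawling cells. Sperm also release them as a signal, which binds receptors such as the Eph receptor VAB-1 on oocytes and sheath cells and prompts oocyte maturation and sheath contraction. Proteins of the ssp class are small relatives with a major sperm protein domain. Hermaphrodites make sperm during a short period late in larval life and then switch to oocytes, while males keep making sperm.

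The msp coding sequences are close copies of each other, and the array could not separate them all. All 23 msp genes and 4 ssp genes, 27 of the 31 members, were read by probe sets whose identifier ends in _x_at, which marks probes that may bind other transcripts. The other 4, ssp-16, ssp-19, ssp-34 and ssp-35, had probe sets ending in _at, which are meant to bind 1 transcript. The msp values may therefore read overlapping pools of transcripts and are not 23 independent measurements, and members are not replicates of a condition. The RefSeq table (assembly WBcel235) lists 48 msp and ssp genes, 4 of them pseudogenes, and the 31 members matched it by Entrez identifier under the same symbols.

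Values are signals in arbitrary units after quantile scaling, which gives the 5 arrays the same distribution. A floor of 24.9, the 40th percentile over the arrays, replaced every lower signal. The deposited signals had medians between 38.8 and 57.1 and 2 to 98% trimmed means between 138 and 217, lowest on the Tsukuba array and highest on the space flight array. Of 10076 genes with a mean log2 signal above the floor, all 31 members were among those tested, and 27 of them, including the 23 msp genes, were above the floor on every array. Levels of different probe sets are not comparable, so each gene is compared with itself between arrays.

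The family was high on the operation-site control and on the space flight array and low on the Tsukuba control, the clinorotation and the hypergravity arrays. The median signal of the 31 members was 1218 on the operation-site control, 256 on the Tsukuba control, 1306 in space flight, 230 under clinorotation and 369 under hypergravity. For the 23 msp genes the medians in the same order were 2016, 560, 2283, 465 and 693. For the 8 ssp genes they were 72.8, 30.8, 89.1, 34.7 and 44. Both of the first-named arrays were above all 3 other arrays for 29 of 31 members, 23 of 23 msp and 6 of 8 ssp genes, against 24.2% of all genes tested. The exceptions were ssp-19 and ssp-37.

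**Figure D1:**
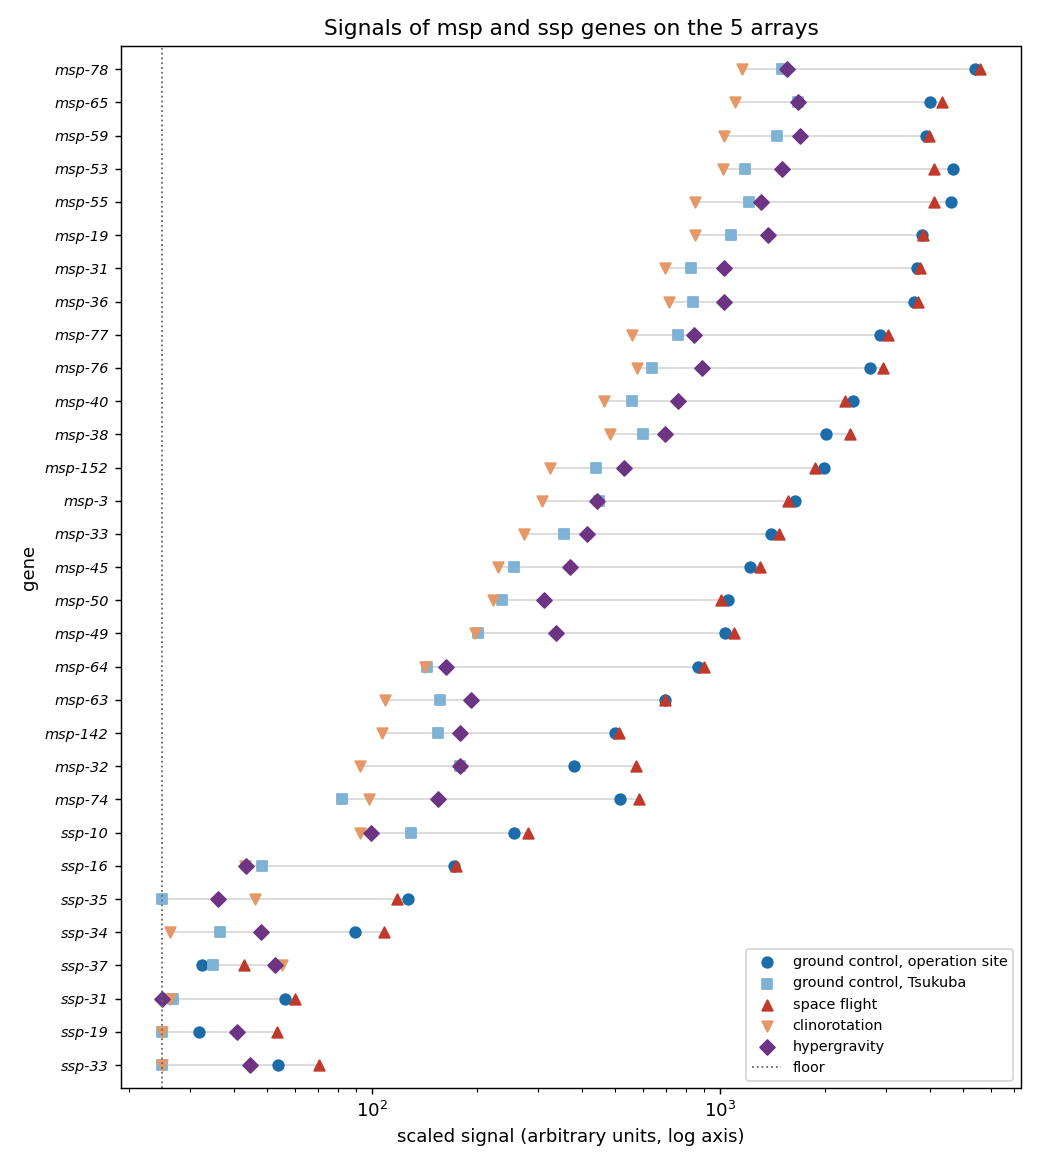
Scaled signal of each of the 31 genes on the 5 arrays, on a log axis, with 1 symbol per array and the floor of 24.9 as a dotted line. For every msp gene the operation-site and space flight symbols lie to the right of the other 3, and the order of genes down the axis carries no comparison of their levels.

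Among the msp genes with strong signal, msp-78 read 5414 on the operation-site control, 1503 on the Tsukuba control, 5568 in space flight, 1154 under clinorotation and 1556 under hypergravity. In the same order, msp-65 read 4001, 1669, 4349, 1100 and 1673. The flight and operation-site values were alike for both genes, and the clinorotation value was the lowest. The signal of msp-59 was 3907 on the operation-site control, 1456 on the Tsukuba control, 3995 in flight, 1023 under clinorotation and 1699 under hypergravity. For msp-19 these signals were 3804, 1073, 3841, 848 and 1373. These also differed little between flight and the operation site, whereas msp-53 and msp-55 were highest on the operation-site control. The signals of msp-53 were 4670 there, 1178 at Tsukuba, 4124 in flight, 1021 under clinorotation and 1510 under hypergravity. The signals of msp-55 in this order were 4612, 1214, 4117, 845 and 1314.

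Among the msp genes with weaker signal, msp-74 read 517 on the operation-site control, 81.9 on the Tsukuba control, 585 in flight, 97.9 under clinorotation and 155 under hypergravity. It was the 1 msp gene whose lowest array was Tsukuba rather than clinorotation. In the same order, msp-142 read 500.1, 155, 512, 107 and 179, and msp-32 read 381, 179, 572, 92.6 and 179. The operation-site and flight arrays stayed above the other 3 for the other msp genes too. For example, msp-64 read 862, 144, 900, 142 and 163, so that clinorotation and Tsukuba were close. The signals of msp-49 were 1033, 201, 1097, 198 and 339, and those of msp-3 were 1643, 448, 1565, 307 and 442. The remaining 11 msp genes ran from 693 to 3672 at the operation site and from 156 to 834 at Tsukuba.

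The 8 ssp genes had a less uniform arrangement of arrays. The signals of ssp-10 were 256 on the operation-site control, 129 on the Tsukuba control, 281 in flight, 92.3 under clinorotation and 99.3 under hypergravity. Those of ssp-16, read by an _at probe set, were 172, 48.3, 174, 43.2 and 43.5. Both repeated the split seen for the msp genes. For ssp-34, also on an _at probe set, the 5 signals were 89.5, 36.6, 108, 26.2 and 48.0. For ssp-35 they were 127 at the operation site, the floor at Tsukuba, 118 in flight, 46 under clinorotation and 36.2 under hypergravity. This gene had its lowest array at Tsukuba.

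Near the floor, ssp-31 read 56.1, 26.7, 59.9 and 26.2 on the operation-site, Tsukuba, flight and clinorotation arrays, and was at the floor under hypergravity. The signals of ssp-33 were 53.7 at the operation site, 70.4 in flight and 44.4 under hypergravity, with the Tsukuba and clinorotation arrays at the floor. For ssp-19, 31.8 at the operation site, 53.1 in flight and 40.8 under hypergravity were measured, again with the Tsukuba and clinorotation arrays at the floor. Its hypergravity signal was above the operation-site signal, which set it apart from the msp genes. The signals of ssp-37 were 32.5, 34.8, 42.9, 55.2 and 52.6, and here clinorotation and hypergravity were the highest arrays.

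The comparison of the ground controls shows how far apart these arrays, both labelled 1 G and from different sites, lay. Site, culture and array handling cannot be told apart in it. On the log2 scale the operation-site control exceeded the Tsukuba control by a median of 1.93 over the 31 members, or 3.80-fold, while the median over all genes tested was 0.03 and their 5th and 95th percentiles were -0.94 and 0.94. The signal was higher at the operation site for 30 of 31 members, against 52.6% of all genes tested. Of the members, 28 were at least 2-fold higher at the operation site, against 4.4% of all genes tested. None was 2-fold lower, against 4.07% of all genes. All 23 msp genes were past 2-fold, with differences from 1.09 for msp-32 (2.13-fold) to 2.66 for msp-74 (6.32-fold). After msp-74 came msp-64 with a 5.99-fold and msp-49 with a 5.13-fold difference. With 1 array on each side these differences have no replicate error and no test.

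For the ssp genes the median log2 difference between the controls was 1.09, and 5 of 8 were at least 2-fold higher at the operation site. The signal of ssp-35 was at least 5.10-fold higher there, since its Tsukuba signal was at the floor, and that of ssp-33 at least 2.16-fold higher. The 3 smallest differences in the family were all of ssp genes: 0.98 for ssp-10 (1.98-fold), at least 1.27-fold for ssp-19, and -0.10 for ssp-37, the 1 member that was lower at the operation site. The 4 members with _at probe sets had a median difference of 1.56, and 3 of the 4 were past 2-fold.

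**Figure D2:**
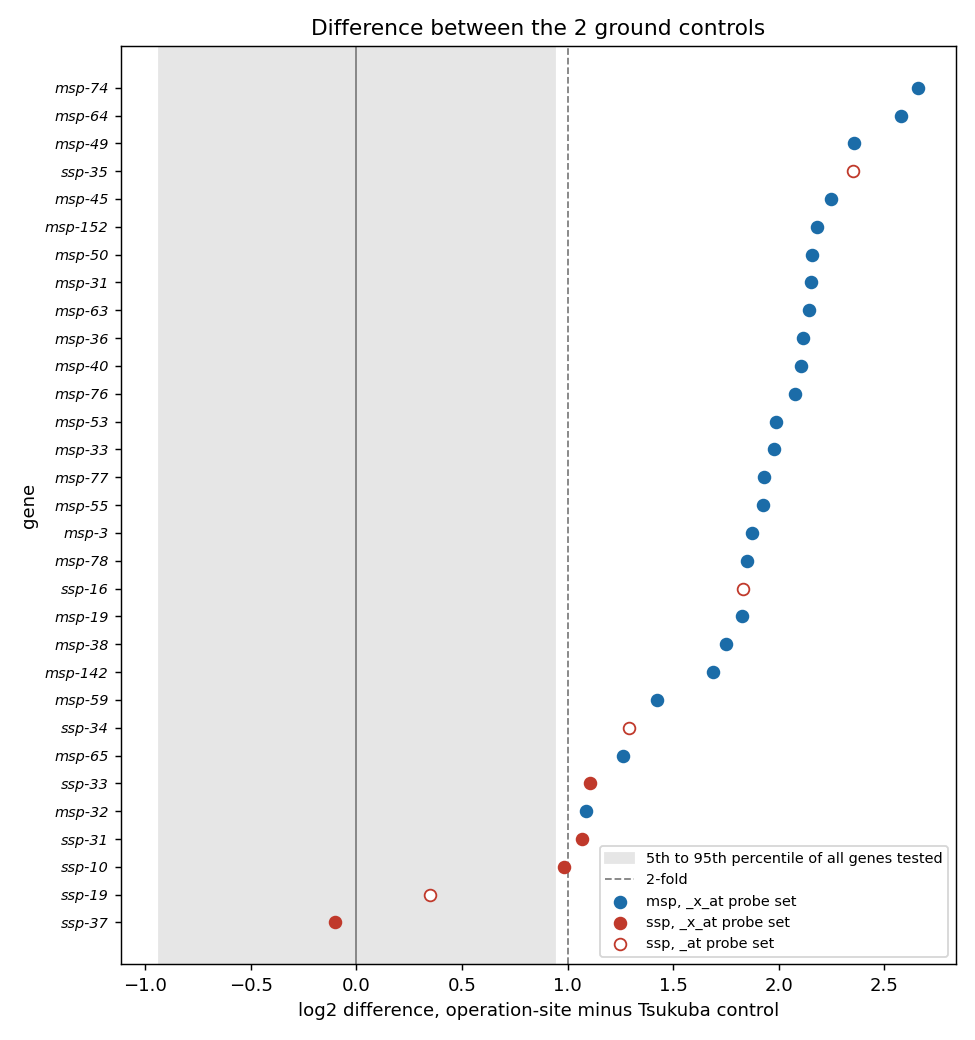
Log2 difference between the operation-site and Tsukuba controls for each of the 31 genes, with filled points for _x_at and open points for _at probe sets, the 2-fold line dashed and the span from the 5th to the 95th percentile of all genes tested shaded. Of the 31 points 28 lie beyond the 2-fold line, and ssp-37 is the 1 point left of 0. Points of ssp-33, ssp-19 and ssp-35 are lower bounds because their Tsukuba signal was at the floor.

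Space flight was compared with both controls, because the design offers no other replicate. All 31 members were higher in flight than in the Tsukuba control, by a median log2 difference of 1.89, and 30 of them at least 2-fold, against 4.33% of all genes tested. Against the operation-site control the median was 0.06, with a range from -0.18 for msp-53 to 0.74 for ssp-19, and 24 members were higher, against 50.7% of all genes. No member was 2-fold apart from the operation site, where 0.586% of all genes were 2-fold higher and 1.18% lower. Flight and operation-site signals lay within 1.2-fold of each other for 26 of 31 members and 22 of 23 msp genes, against 60.3% of all genes. Relative to the mean of the controls the family median was 0.97, which lies between these values and describes neither control.

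By position, 24 members were above both controls in flight, 7 lay between them and none was below both, while 36.3% of all genes tested were above both. This count rests on small differences from the operation-site control: it was 18 with trimmed-mean scaling, 17 with scaling to the 75th percentile and 31 without scaling, where the median of all genes was itself 0.54 higher in flight than at the operation site. No member was 2-fold above both controls, against 0.149% of all genes, or 2-fold below both, against 0.516%. The members farthest above both controls were ssp-19 by 0.74, msp-32 by 0.59 and ssp-33 by 0.39 on the log2 scale. Of these, ssp-19 and ssp-33 were near the floor.

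Under clinorotation the family was close to the Tsukuba control and lay mostly a little under it. The median log2 difference from Tsukuba was -0.27, from -0.95 for msp-32 to 0.88 for ssp-35, the last a lower bound because its Tsukuba signal was at the floor. Of 31 members, 26 were lower than Tsukuba, against 48.1% of all genes tested, but without scaling 16 were higher and 12 lower, with a family median of 0.01 against 0.35 over all genes. No member was 2-fold apart from Tsukuba, where 0.308% of all genes were 2-fold higher and 0.208% lower, but with the floor at the 20th percentile 1 member was 2-fold higher. From the operation-site control the median was -2.23, and 29 members were at least 2-fold lower, against 4.71% of all genes.

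Clinorotation gave the lowest of the 5 arrays for 25 of 31 members and 22 of 23 msp genes, against 14.3% of all genes tested. Positions relative to the controls were below both for 26 members, between them for 4 and above both for 1, while 27.7% of all genes were below both. Farthest below both were msp-32 by -0.95, msp-65 by -0.60 and msp-3 by -0.55, all short of 2-fold. The 1 member above both was ssp-37, by 0.66. At least 2-fold beyond both controls were 0.0893% of all genes upward and 0.0298% downward, and 0 members.

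Under hypergravity the family also lay near the Tsukuba control, mostly a little above it. The median log2 difference from Tsukuba was 0.30, from -0.38 for ssp-10 to 0.92 for msp-74, and 26 of 31 members were higher, against 49.8% of all genes tested. Without scaling 30 were higher, with a family median of 0.77 against 0.43 over all genes. No member was 2-fold apart from Tsukuba on these scaled values, where 0.705% of all genes were 2-fold higher and 1.58% lower. At least 2-fold higher were 2 members with the floor at the 20th percentile, 3 without scaling and 1 without a floor. From the operation-site control the median was -1.67, and 27 members were at least 2-fold lower, against 6.63% of all genes. Most members, 24 of 31, therefore lay between the controls, against 3434 of the 10076 genes tested. Above both were ssp-37 by 0.59 and ssp-19 by 0.36, while 33.2% of all genes were above both. Below both were 5 members, against 32.7% of all genes, led by ssp-10 by -0.38, ssp-16 by -0.15 and ssp-31 by -0.10. None was 2-fold beyond both controls in either direction, where 0.238% of all genes lay above and 0.665% below.

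Set directly against clinorotation, the hypergravity signal was higher for 28 of 31 members and for 23 of 23 msp genes, against 49.8% of all genes tested. The median log2 difference was 0.60 over the family, and the msp genes ran from 0.20 for msp-64 to 0.95 for msp-32. The 3 members with the opposite direction were ssp-31, ssp-35 and ssp-37. Space flight exceeded clinorotation by a median of 2.29 and hypergravity by 1.70, with 30 and 28 members at least 2-fold higher, against 4.46% and 5% of all genes. Each of these compares 1 array with another and has no test.

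**Figure D3:**
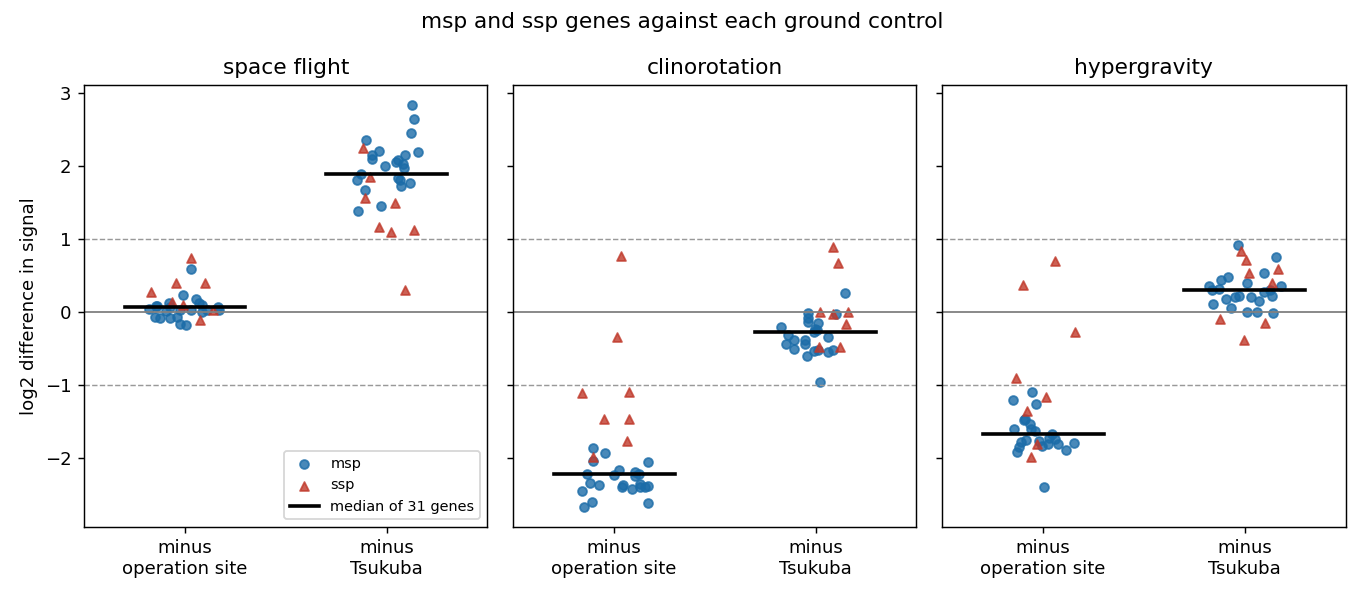
Log2 difference of the 31 genes on each treatment array from each ground control, with circles for msp, triangles for ssp, a bar at the median and dashed lines at 2-fold. Space flight points gather near 0 against the operation site (median 0.06), whereas clinorotation and hypergravity points gather near 0 against Tsukuba (medians -0.27 and 0.30).

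In the model fitted to all genes, no member passed a Benjamini-Hochberg adjusted p under 0.05 in any treatment, and no gene of the 10076 did (0% in each comparison). At an unadjusted limma p under 0.05 there were 144 genes for flight (1.43%), 33 for clinorotation (0.328%) and 250 for hypergravity (2.48%), none of them a member. The limma fit has 1 residual degree of freedom and takes its error from the gap between the controls, in which most of the family is far apart. Each gene's error is drawn toward a value set by all genes of like signal. After this step the members' standard errors ran from 0.34 to 1.27 on the log2 scale. The 0.34 belongs to ssp-37, whose SD between the controls was 0.07, and the 1.27 to msp-74, whose SD was 1.88. For msp-74 in flight the fitted log2 difference from the control mean was 1.51 ± 1.27 (SE, 2 controls against 1 array), and the adjusted limma p was 0.970. For msp-3 under clinorotation it was -1.48 ± 0.90 (SE), with an adjusted limma p of 1. The lowest unadjusted limma p of a member was 0.0770 for ssp-19 in flight, 0.0697 for msp-32 under clinorotation and 0.140 for ssp-37 under hypergravity. These p-values rest on the spread between the controls alone, of the gene and of all genes, which may be technical.

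The probe sets of msp-32 disagreed. The values above come from its _x_at probe set, the one with the higher mean. The other, an _at probe set meant for msp-32 alone, read 35.2 on the Tsukuba control and was at the floor on the 4 other arrays, with deposited signals of 11.5, 29.7, 22.8, 12 and 26.4 in the order operation site, Tsukuba, flight, clinorotation and hypergravity. Its log2 difference between the controls was -0.50, against 1.09 for the _x_at probe set. How much of the _x_at signal comes from msp-32 was not tested.

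A further 10 probe sets name several symbols with at least 1 of the family and were no members. They name 20 family symbols, 13 of them absent from the members, and 1 probe set alone names 17 symbols. Some also name members, msp-81 with msp-79 and msp-56 with msp-10 recur, and all but that of ssp-32 and ssp-36 are _x_at. They may therefore read the members' transcripts and are no independent support. All 10 were higher on the operation-site control than on the Tsukuba control, with a median log2 difference of 1.85 and a range from 0.89 to 2.30. The probe set of msp-51, msp-53, msp-57 and msp-55, of which msp-53 and msp-55 are members, read 5851, 1524, 5114, 1308 and 1705 in the order of arrays above. The _x_at probe set of ssp-11 and ssp-9, which are no members, read 840, 171, 638, 149 and 181, the same split. Flight minus operation site had a median of 0.03, clinorotation minus Tsukuba -0.25 with 0 of 10 higher, and hypergravity minus Tsukuba 0.17 with 8 of 10 higher.

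The msp genes lie in clusters on chromosomes II and IV, known in this species for sperm genes. With genes joined into a group where neighbours in RefSeq WBcel235 are at most 1 Mb apart, 13 msp members fell in a group on chromosome II and 5 in each of a pair of groups on chromosome IV. The median log2 difference between the controls was 2.15 on chromosome II, and 1.83 and 1.93 in the groups on IV. Clinorotation minus Tsukuba was -0.27, -0.51 and -0.31, and hypergravity minus Tsukuba 0.30, 0.22 and 0.21. The chromosome IV group of msp-55, msp-53, msp-19, msp-59 and msp-65 had the lowest medians for the controls and for clinorotation, but probe sets of different groups may read the same transcripts, and the differences were not tested. Of the ssp members, ssp-10 and ssp-34 lay inside the second group on chromosome IV, among msp-76, msp-78, msp-77, msp-36 and msp-38, and the other 6 lay apart from the msp genes on chromosomes I and V.

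Most of the other sperm genes that were tested shared the order of arrays of the family, some with smaller differences. Of 54 sperm genes outside it, 43 were on the array. Of these 43, 16 were at the floor on the operation-site control and 23 on the Tsukuba control. Only 22 had a mean above the floor and were tested. The 22 had a median log2 difference of 1.65 between the controls. Among them 21 were higher and 13 at least 2-fold higher at the operation site, against 52.6% and 4.4% of all genes tested. A gene can pass this filter through its high arrays, as sss-1 was at the floor at Tsukuba and under clinorotation. The counts therefore cover detected genes only. In the small sperm-enriched families 12 tested genes had a median of 1.97. Of these, nspd-1, nspd-2, nspd-4, nspd-7 and ssq-3 were on _x_at probe sets, which may bind other transcripts. A further pair, sss-1 and smz-2, were on _s_at probe sets, which may bind several alike transcripts. In the order operation site, Tsukuba, flight, clinorotation and hypergravity, nspd-1 of the nematode-specific peptide family D read 399, 81.0, 344, 72.7 and 97.3. The PDZ-domain gene smz-1, on an _at probe set, read 195, 48.8, 203, 46.7 and 70.4. These arrangements match the msp genes in which arrays were high and which low. Between flight and the operation site the 12 ran from -0.57 for ssq-1 to 0.99 for smz-2, with 6 higher and 6 lower in flight. The 6 tested genes of sperm organelles and motility had a smaller median of 0.65, with 5 of 6 higher and 2 at least 2-fold higher at the operation site. Those 2 were the sperm protein phosphatase genes gsp-3 and gsp-4, needed for the major sperm protein dynamics of the sperm. They read 307, 73.7, 275, 53.2 and 72.8 and 204, 56.9, 233, 36.5 and 76.7. Both were on _x_at probe sets, so the pair may not be separate readings. The presenilin-like gene spe-4, which acts in the organelle that packages major sperm proteins, read 70.9, 65.4, 81.0, 67.2 and 29.8. Its controls differed little, by 0.12, and hypergravity was its low array, below both controls by -1.13 on the log2 scale. The other 3 had control differences of 0.43 for spe-5, 0.87 for spe-15 and -0.02 for spe-39. Of the spermatid activation genes 3 of 11 on the array were tested, with a median control difference of 0.32, and of the sperm surface genes only spe-41, with 0.63. The operation-site and flight arrays were above the other 3 for 12 of 12 small-family genes and 4 of 6 organelle and motility genes. The same held for 2 of 3 activation genes and for spe-41, against 24.2% of all genes tested.

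Genes listed for the choice between sperm and oocyte, or as regulators of sperm transcription, differed less. The list mixes genes of sperm fate with genes of oocyte fate, so its median is no measure of either. The 19 tested of 20 had a median log2 difference of 0.10 between the controls, 0.11 between flight and the operation site, 0.07 between clinorotation and Tsukuba and 0.18 between hypergravity and Tsukuba. At the operation site 13 were higher than at Tsukuba, against 52.6% of all genes tested, and 6 were lower. The 6 were elt-1 (-0.69), fem-3 (-0.17), fem-2 (-0.16), fem-1 (-0.04), fog-2 (-0.03) and tra-3 (-0.02). Within this list fog-3, a Tob-family gene required for sperm fate, read 119, 52.1, 120, 45.1 and 80.0, and was the 1 gene at least 2-fold apart between the controls. The sperm transcription regulator spe-44 read 109, 72.7, 133, 72.0 and 108. The GATA factor gene elt-1, known to act on msp promoters, read 46.8, 75.2, 52.6, 85.2 and 72.3, the reverse of the msp arrangement. The translational repressor gene gld-1 read 1046, 680, 1189, 947 and 1116 and the PUF gene puf-8 read 710, 462, 765, 546 and 760, both lowest at Tsukuba.

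Genes that receive the major sperm protein signal differed little as a list. The 19 tested of 20 had a median log2 difference of 0.08 between the controls, none of them 2-fold, and of 0.31 between hypergravity and Tsukuba. The receptor gene vab-1 read 198, 317, 249, 249 and 312, lowest at the operation site. Signals of ceh-18, a homeobox gene of sheath cells, were 114, 66.0, 86.2, 71.3 and 72.7. For 3 of the 19, namely ceh-18, kin-2 and mpk-1, the operation-site and flight arrays were above the other 3, as they were for 24.2% of all genes tested. The oocyte maturation gene oma-2 read 1205, 1124, 1506, 1352 and 1944 and ran-1 read 2398, 1940, 2559, 2410 and 3110, both highest under hypergravity. The gene vpr-1, whose protein has a major sperm protein domain but is not made for sperm alone, stayed between 1048 and 1245 on all arrays.

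Markers of the cells and stages that the cultures hold are given beside these results. The 25 markers of oocytes, early embryos and the germ line were tested in full, with a median log2 difference of 0.19 between the controls and 21 of 25 higher at the operation site, against 52.6% of all genes. Their summed signals were 30479, 26034, 35932, 27945 and 34463 in the order of arrays above, so the operation-site sum was higher than Tsukuba and the flight and hypergravity sums were higher than both. Such sums are led by the probe sets with the most signal, as perm-4 alone read 6013 at the operation site. In flight 23 of the 25 were above both controls, against 36.3% of all genes. The germ granule gene glh-1 read 1306, 645, 1290, 704 and 772, and was the 1 gene at least 2-fold apart between the controls. For 8 of the 25 the operation-site and flight arrays were above the other 3, against 24.2% of all genes tested. None of the 6 markers of male somatic tissue on the array was tested: mab-3, lov-1, pkd-2, cil-7 and klp-6 were at the floor on all arrays, and dmd-3 was above it in flight alone, at 27.3. The 5 yolk genes had a median of -0.04 between the controls and summed to 11395, 9997, 11364, 9944 and 16982, highest under hypergravity.

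Of somatic gonad markers 7 of 8 were tested, with a median of 0.24 between the controls. Among them fkh-6, a gonad forkhead gene, read 68.1, 30.2, 65.1, the floor and 30.8, with the operation-site and flight arrays high, and was the 1 gene of the 7 past 2-fold between the controls. Of the others lim-7 with -0.45 and ipp-5 with -0.18 were lower at the operation site. The 8 moulting markers, which larvae express, had a median of -0.09 between the controls and -0.45 between flight and the operation site, and summed to 1274, 1505, 828, 1420 and 1672. The 6 body wall muscle markers had medians of -0.02 and -0.34 for the same comparisons. The part of the animals' ages, of the number of germ cells and of the site of culture in the family's values was not tested. No gene of any list passed the adjusted limma test in any treatment.

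**Figure D4:**
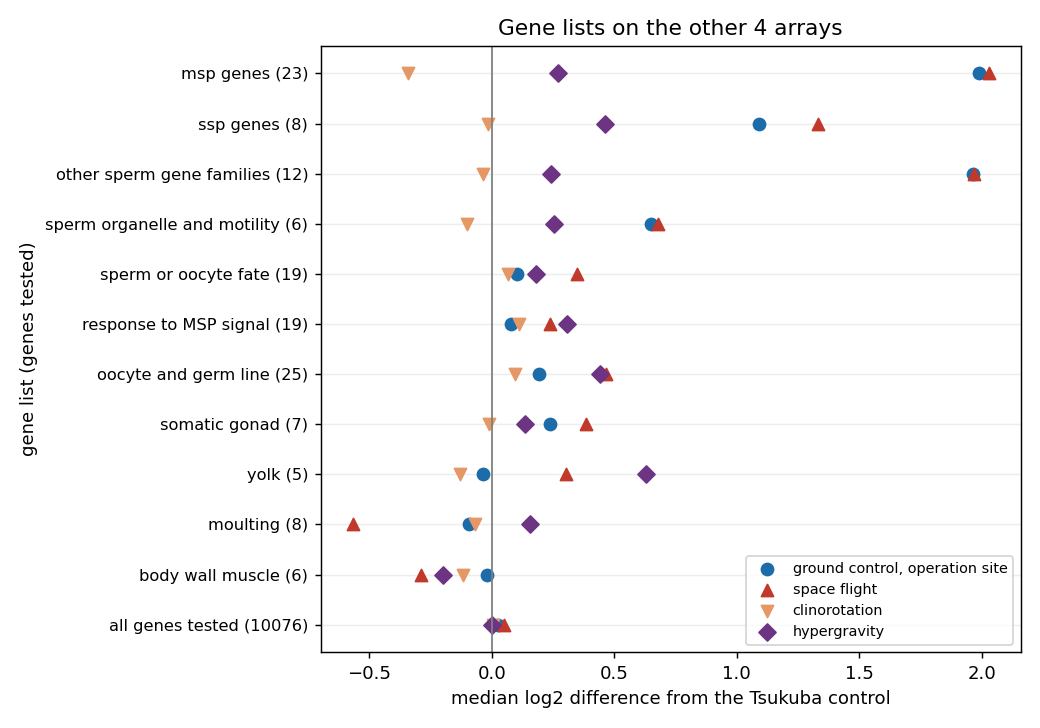
Median log2 difference from the Tsukuba control for the msp and ssp genes, 9 other gene lists and all genes tested, with 1 symbol for each of the other 4 arrays and the number of genes tested in brackets. Operation-site and flight symbols lie farthest to the right for the msp genes (1.99 and 2.03) and the other sperm gene families (both 1.97), and near those of the other arrays for the fate, reception and oocyte lists. Lists of 1 to 3 genes are not drawn.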

How the data were processed

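The authors deposited intensities, 1 linear signal per probe set and array. How probe cells were combined is not given in the sources, and detection calls were not used here. Per the labels, frozen worms gave total RNA by ISOGEN extraction, of which 15 µg went into biotinylated cRNA. Probe sets were named by the platform annotation: 20766 of 22548 carried 1 symbol, 887 several and 895 were not listed, and the last pair of classes, 1782 probe sets, was left out of the comparisons. Of several probe sets of a gene the one with the highest mean was used.

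Arrays were quantile normalized on the log2 scale, signals were floored at the 40th percentile (24.9), and 10076 genes with a mean above the floor were tested with limma 3.58.1 in R 4.3.3 (lmFit, eBayes with an intensity trend, two-sided, Benjamini-Hochberg) on all 5 arrays. The controls formed 1 group, 1 residual degree of freedom remained, and each lone array was assumed to vary like them. The fit was also run on simulated data in which all genes shared a common spread, unlike the members, and nothing here rests on it. A fold against the floor is a lower bound. The number of arrays limits the precision of every value, and nothing says that the controls are more than 1 culture each.

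Alternatives covered scaling, floor, probe set choice, filter, variance prior and each control left out. Named members were the 6 msp and 4 ssp genes with the highest and the 3 of each with the lowest mean, the 3 farthest outside both controls per treatment and direction, the 3 largest and 3 smallest differences between controls, and genes with several probe sets. Of other lists up to 4 genes of highest mean were to be named. Named for their role or after their values were seen were fog-3, spe-44, elt-1, vab-1, ceh-18, kin-2, mpk-1, spe-4, spe-15, smz-1, fkh-6, lim-7 and ipp-5. The same holds for fem-1, fem-3, fog-2, tra-3, sss-1, nspd-7, ssq-1, ssq-3, smz-2 and glh-1. Members, lists and tests were chosen with earlier results of these data known. A planned count of promoter motifs was not run, because promoter sequence was not used here.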

Additional observations from a re-analysis of the deposited data

How the results depend on the processing

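The direction of the family medians against the control mean and the 0 genes past the adjusted limma p were kept under the other scalings, floors, probe set rules and the variance prior without trend. The direction of the median of clinorotation minus Tsukuba was not kept: it was -0.27, and 0.01 without scaling. With all 17118 named genes in the fit, limma called 190 genes for flight, 151 for clinorotation and 265 for hypergravity. Of these, 179, 147 and 256 had both controls at the floor, and none was a member. Without scaling 2 members lay 2-fold above both controls in flight. The controls decide most counts. With 1 control left out, the count of members 2-fold outside in flight ran from 0 to 30 and the family median from 0.06 to 1.89. Under clinorotation they ran from 0 to 29 and from -2.23 to -0.27. Under hypergravity they ran from 0 to 27 and from -1.67 to 0.30, so that without the operation-site control the median of -0.64 turned to 0.30. Without _s_at and _x_at probe sets 4 members remained for the controls, and 3 of them were 2-fold apart, because 27 members have no other probe set that was tested. For single members 355 recomputed differences from the control mean moved by less than the gene's SD between the controls and 20 by more, all of msp-32, ssp-19, ssp-33 and ssp-37. The limma fit with 1 control has no residual degree of freedom and was not run. No paired analysis was possible because the groups share fewer than 2 replicate numbers. Detection limits per probe set were not given, and the floor stands in for them.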
